A study of Mus musculus with 55 samples.

Results

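Interferon response genes were taken as the 9 genes Stat2, Irf9, Irf1, Irf7, Ifih1, Isg15, Ifit1, Ifit3 and Bst2, found by symbol in both RNA tables. They are 9 of 15479 genes in the table of PRMK against PRM cells and 9 of 51912 in the table of sgMeis2 against sgScramble cells. For chromatin, all deposited peaks over each gene body and 10 kb to each side were read. The cells were mouse lung organoids with guides against Trp53 and Rb1 and an MSCV-Myc-IRES-Luc2 transgene, injected into the left lung lobe of recipient mice and harvested from them as organoids. These shared alterations define the PRM cells, which model small cell lung cancer, a neuroendocrine tumour. PRMK cells carried an added guide against Kmt2c, which encodes a histone H3 lysine 4 methyltransferase, although the plasmids listed for the PRMK RNA libraries do not name that guide. The sgMeis2 and sgScramble cells carried the PRM alterations, the Kmt2c guide, and a guide against Meis2, a homeobox transcription factor gene, or a scrambled guide. RNA was compared in 3 libraries per group. Peak lists came from 2 libraries per group of lung PRMK and lung PRM cells (ATAC, H3K4me1, H3K4me2, H3K4me3 and KMT2C), and from liver PRM cells for ATAC, H3K4me1 and KMT2C. PRMK replicate 1 of the H3K4me2, H3K4me3 and KMT2C lists names the Meis2 guide among its plasmids, and replicate 2 names the scrambled guide. Whether replicates are separate mice or clones is not stated in the labels, and p-values then measure the spread between these libraries, which may be technical.

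Interferons are secreted proteins that act through surface receptors and JAK kinases. Type I interferon drives STAT2 and IRF9 into a complex that binds interferon-stimulated response elements (ISRE) in the promoters of antiviral genes. Type II interferon acts at gamma-activated sites (GAS), and IRF1 is a classic GAS target. Among the 9 genes, Stat2, Irf9, Irf1 and Irf7 encode transcription factors of the response. Ifih1 encodes MDA5, a cytosolic sensor of double-stranded RNA. Isg15 encodes a ubiquitin-like modifier, Ifit1 and Ifit3 encode proteins that act against viral RNA, and Bst2 encodes tetherin, which holds budding virions at the cell surface.

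The promoters show which of these elements the genes hold next to their starts. Promoter sequences of all 9 genes were matched in RefSeq (GRCm38.p6), each with 250 bases before and 50 bases after a transcript start. The ISRE core, GAAA repeated after any 2 bases, searched on both strands with overlapping matches counted, was present in 6 of the 9 genes (Stat2, Ifih1, Isg15, Ifit1, Ifit3 and Bst2). It was present in 3.99% of the 27025 genes with promoter windows of the same length. The GAS core TTCNNNGAA was present in Irf1 and Bst2, and in 9.55% of those genes. In Bst2 the GAS core overlapped an ISRE core. No match to either core was found in the windows of Irf7 and Irf9. Distances before or after a start count here from the RefSeq transcript start of each window. Peaks were scored from the start of the gene's whole span, which for Ifit3 lies 410 bases further upstream. A match describes letters in a window and is not a measured binding site.

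The bases before the start are shown for a transcription factor gene with an ISRE core (Stat2), the gene with a lone GAS core (Irf1), and the effectors with 3 overlapping cores (Isg15) and with a pair of separate cores (Ifit1). A site of 20 bases is added for Ifih1, whose core lay after the start. Capitals mark the cores, and each sequence runs 5′ to 3′ on the strand of its gene. Stat2 is chr10:128270248-128270497 on the plus strand, Irf1 chr11:53769764-53770013 on the plus strand, Isg15 chr4:156200819-156201068 on the minus strand, Ifit1 chr19:34640639-34640888 on the plus strand and the Ifih1 site chr2:62646209-62646228 on the minus strand.
Stat2: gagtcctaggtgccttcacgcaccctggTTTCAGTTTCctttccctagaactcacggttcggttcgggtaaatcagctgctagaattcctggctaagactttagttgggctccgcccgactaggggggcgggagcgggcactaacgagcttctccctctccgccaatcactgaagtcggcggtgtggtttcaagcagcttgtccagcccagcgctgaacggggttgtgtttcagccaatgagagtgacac
Irf1: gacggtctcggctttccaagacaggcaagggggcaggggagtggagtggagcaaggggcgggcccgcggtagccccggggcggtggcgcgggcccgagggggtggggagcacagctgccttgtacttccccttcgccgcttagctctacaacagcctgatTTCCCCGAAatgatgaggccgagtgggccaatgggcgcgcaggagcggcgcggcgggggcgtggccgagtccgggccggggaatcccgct
Isg15: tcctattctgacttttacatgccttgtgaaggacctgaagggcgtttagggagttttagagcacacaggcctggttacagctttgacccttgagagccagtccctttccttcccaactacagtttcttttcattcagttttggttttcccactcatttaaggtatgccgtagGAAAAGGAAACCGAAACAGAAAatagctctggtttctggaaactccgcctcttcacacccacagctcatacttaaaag
Ifit1: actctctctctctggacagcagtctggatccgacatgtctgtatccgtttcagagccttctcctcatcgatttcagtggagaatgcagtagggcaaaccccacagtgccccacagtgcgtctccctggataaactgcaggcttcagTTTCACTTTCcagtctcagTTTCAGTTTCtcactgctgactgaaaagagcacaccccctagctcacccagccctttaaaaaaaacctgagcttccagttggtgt
Ifih1 site: gaatcGAAACAGAAAccgat

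The Stat2 core, written TTTCAGTTTC on the strand of the gene, began 222 bases before the start. The Irf1 core TTCCCCGAA began 90 bases before the start. The Isg15 cores GAAAAGGAAA, GAAACCGAAA and GAAACAGAAA began 78, 72 and 66 bases before the start, so neighbouring cores share 4 bases. The Ifit1 cores TTTCACTTTC and TTTCAGTTTC began 104 and 85 bases before the start. The same pair of letter strings was found in Ifit3, at 156 and 122 bases before its start.

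Total counts were 18819262 to 24123055 in the PRMK libraries, 12013253 to 19550439 in PRM, 18524493 to 22012962 in sgMeis2 and 21228986 to 24389041 in sgScramble. Levels are given in CPM, counts scaled to library size, with TMM scaling, which normalizes for library composition, within each table. The PRM libraries differed most from each other, with Pearson r of log2 CPM across genes of 0.805 to 0.891, against 0.949 to 0.978 in PRMK. They are numbered 4, 5 and 6 as the count columns are, while the sample titles number them 3 to 5. Neuroendocrine marker genes summed to 124 CPM in PRM 6 and to 3087 to 5667 CPM in the other 5 libraries. The targeted gene Kmt2c was at 91.4 ± 11.5 CPM (SD, n = 3) in PRMK and 122 ± 60.1 CPM (SD, n = 3) in PRM, a log2 fold change of -0.42 (edgeR adjusted p = 0.585). Its RNA level does not test a guide that cuts the DNA. A stranded library kit is named only for the PRM libraries, so kit and genotype cannot be told apart.

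The first comparison asked how PRMK cells with a Kmt2c guide differed from PRM cells. Stat2, Irf9 and Ifih1 were higher in all 3 PRMK libraries than in any PRM library. They were 3 of the 8 members with enough counts to test, and 15.1% of the 13914 tested genes were separated in that direction. No member, and 0% of all tested genes, passed an adjusted p of 0.05 in edgeR's quasi-likelihood test. Unadjusted p-values under 0.05 were found for 2 members, Stat2 and Ifih1, both higher in PRMK, against 7.03% of all genes in that direction. DESeq2 called 1 member, Stat2, and 3.9% of all genes as higher. The log2 fold change was above 0 for 6 of the 8 members and 48.6% of all genes, with a median of 0.37 over members and -0.02 over all genes. Without PRM 6 it was above 0 for 9 of 9 tested members, with a median of 1.48, and without PRM 4 or PRMK 3 for 4 of 8, with medians of 0.20 and 0.22.

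**Figure D1:**
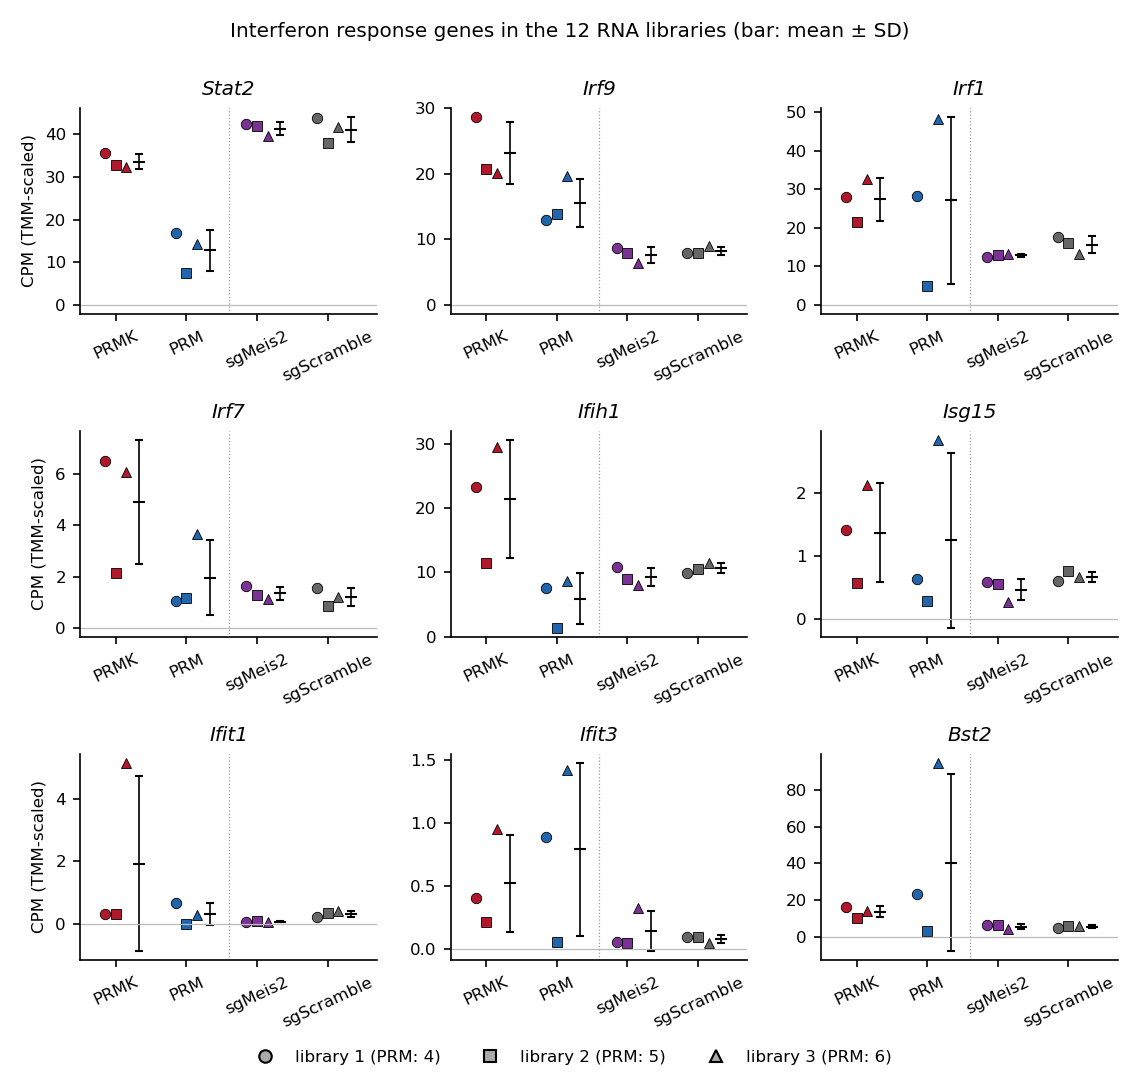
TMM-scaled CPM of each interferon response gene in the 12 RNA libraries, with the mean ± SD of each group of 3 as a bar. The dotted line parts the tables, which were scaled separately. Stat2, Irf9 and Ifih1 do not overlap between PRMK and PRM, while Bst2 ranges from 3.25 to 94.6 CPM within PRM.

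Stat2, the partner of IRF9 in type I signalling, was at 35.6, 32.8 and 32.4 CPM in PRMK 1, 2 and 3. It was at 16.7, 7.40 and 14.2 CPM in PRM 4, 5 and 6. The PRMK libraries lay close together and all above PRM, whose highest value was in PRM 4. edgeR estimated a log2 difference of 1.40 (SE 0.36, adjusted p = 0.207), and the DESeq2 adjusted p was 0.0117. The authors' deposited table lists a log2 fold change of 1.44 with an adjusted p of 0.0173. Across the alternative settings the log2 fold change stayed between 1.13 and 1.59, and the adjusted p between 0.0117 and 0.667. Stat2 lies on chromosome 10 (128270498 to 128292853), and the median gene of that chromosome was at -0.27, -0.20 and -0.15 on the log2 scale against the other libraries in PRM 4, 5 and 6, and at 0.04 to 0.07 in PRMK.

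Irf9, the DNA-binding subunit of that complex, was at 28.6, 20.7 and 20.1 CPM in PRMK 1, 2 and 3 and at 12.9, 13.8 and 19.7 CPM in PRM 4, 5 and 6. The groups touched without overlapping, since PRMK 3 and PRM 6 were nearly level. edgeR estimated a log2 difference of 0.58 (SE 0.32, adjusted p = 0.394). Irf9 lies on chromosome 14 (55603985 to 55610030), whose median gene stood at -0.80 in PRM 4 and -0.31 in PRMK 3 against the other libraries on the log2 scale. The part of these shifts in the levels of Irf9 was not tested. Without PRM 4 the log2 fold change of Irf9 was 0.41, and without PRMK 1 it was 0.37.

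Irf1 did not separate the groups. It was at 27.9, 21.6 and 32.8 CPM in PRMK and at 28.3, 4.88 and 48.2 CPM in PRM 4, 5 and 6, so that PRM held both the lowest and the highest value. edgeR put the difference at 0.02 on the log2 scale (SE 0.74, adjusted p = 0.992). Irf7, which amplifies type I interferon production, was at 6.51, 2.14 and 6.10 CPM in PRMK and at 1.05, 1.18 and 3.65 CPM in PRM 4, 5 and 6. PRMK 2 lay below PRM 6, and the log2 fold change was 1.34 (SE 0.74, edgeR adjusted p = 0.399).

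Ifih1, the RNA sensor, had the largest positive log2 fold change of the tested members. Its levels were 23.3, 11.5 and 29.5 CPM in PRMK and 7.63, 1.40 and 8.72 CPM in PRM 4, 5 and 6. The lowest PRMK library stood above the highest PRM library. edgeR estimated a log2 difference of 1.86 (SE 0.75) with an unadjusted p of 0.0458 and an adjusted p of 0.283. The DESeq2 adjusted p was 0.109.

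The effector members did not share a direction. Isg15 was at 1.41, 0.574 and 2.14 CPM in PRMK and at 0.627, 0.280 and 2.85 CPM in PRM 4, 5 and 6, and the groups overlapped. Its log2 fold change was 0.16 (SE 0.99, edgeR adjusted p = 0.946). Ifit3 had 10, 4 and 24 counts in PRMK and 17, 1 and 16 counts in PRM 4, 5 and 6, with a log2 fold change of -0.57 (SE 1.11, edgeR adjusted p = 0.817). Its counts are uncertain in addition because of the close copy Ifit3b. Ifit1 had too few counts to test, with 8, 6 and 130 counts in PRMK and 13, 0 and 3 counts in PRM 4, 5 and 6. PRMK 3 alone held most of its reads.

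Bst2 had the lowest log2 fold change of the tested members. It was at 16.1, 10.3 and 14.3 CPM in PRMK and at 23.3, 3.25 and 94.6 CPM in PRM 4, 5 and 6. The PRMK values fell inside the range of PRM. The log2 fold change was -1.57 (SE 1.05, edgeR adjusted p = 0.475). Without PRM 6, the library with the low neuroendocrine marker sum, it was 0.03.

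A single library stood out across the genes. PRM 5 held the lowest of the 6 values for 7 of the 9 genes (Stat2, Irf1, Ifih1, Isg15, Ifit1, Ifit3 and Bst2). The other genes, Irf7 and Irf9, were lowest in PRM 4. The share of all tested genes that were lowest in PRM 5 was not counted. The summed level of the 9 genes was 32.2 CPM in PRM 5, 92.2 in PRM 4, 193.5 in PRM 6 and 100.2 to 143 in PRMK. The 13 leukocyte marker genes in the table summed to 6.50 CPM in PRM 5, 607 in PRM 4, 101 in PRM 6 and 549 to 814 in PRMK. The macrophage markers C1qa, C1qb, Itgam and Tyrobp were at 0 in PRM 5. Fibroblast markers summed to 4.54 CPM in PRM 5 and to 72.5 to 346 CPM in the other 5 libraries. In bulk RNA, fewer cells of a type and less RNA per cell cannot be told apart, and the part of these cells in the differences was not tested.

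Stat2 and leukocyte markers can be set side by side in each library. PRM 5, with 6.50 CPM of leukocyte markers, had Stat2 at 7.40 CPM, the lowest of the PRMK and PRM libraries. PRM 4, with 607 CPM of leukocyte markers, had Stat2 at 16.7 CPM. PRM 6, with 101 CPM of leukocyte markers, had Stat2 between those levels. PRMK 1, 2 and 3, with 549, 582 and 814 CPM of leukocyte markers, had Stat2 above every PRM library. In the sgMeis2 and sgScramble libraries, which carry the Kmt2c guide too, the 18 leukocyte markers of that table summed to 3.77 to 6.27 CPM, with Adgre1 and Itgam at 0 in all 6. Stat2 was at 37.8 to 43.8 CPM there. The tables were scaled separately, so no test was made between them, and the part of leukocytes in the level of Stat2 was not tested.

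**Figure D2:**
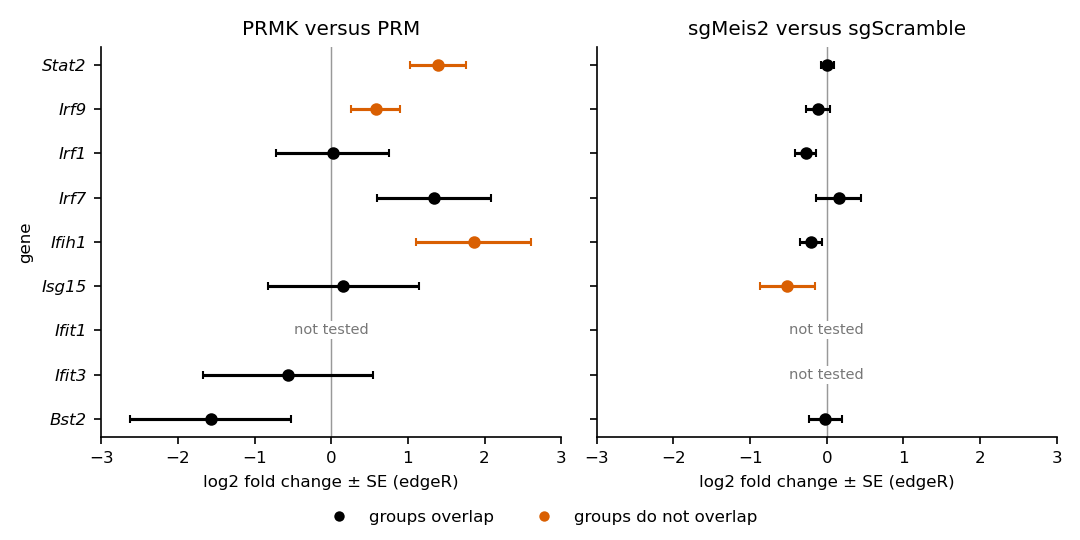
Log2 fold change ± SE from edgeR for each gene in PRMK against PRM (left) and sgMeis2 against sgScramble (right), each from 3 against 3 libraries. Orange points are genes whose groups do not overlap. Values run from -1.57 (Bst2) to 1.86 (Ifih1) on the left and from -0.51 (Isg15) to 0.16 (Irf7) on the right.

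The rest of the pathway was read from lists of ligands, receptors, factors, sensors, effectors and negative regulators. Other interferon-stimulated effectors had log2 fold changes above 0 in 37 of the 43 tested genes, with a median of 1.06. In 14 of them the PRMK libraries were all above the PRM libraries, and in 1 all below, where 15.1% and 14.6% of all genes were. edgeR called none. An unadjusted p under 0.05 was found for 6, all higher in PRMK, against 7.03% of all genes in that direction. DESeq2 called 4, all higher, against 3.9% of all genes. Without PRM 5, the library low in leukocyte markers, the count was 31 of 46 and the median 0.53. Without PRM 6 the count was 41 of 44 and the median 1.52. Over the same libraries, leukocyte markers had log2 fold changes above 0 in 9 of 10 tested genes, with a median of 1.38, and 3 were separated higher in PRMK. Endothelial markers were above 0 in 3 of 4 tested genes, with a median of 2.30, 2 were separated higher and DESeq2 called 1. The 5 endothelial markers in the table summed to 79.7, 24.1 and 200.5 CPM in PRMK 1, 2 and 3 and to 39.6, 1.12 and 6.05 CPM in PRM 4, 5 and 6. The part of these cell types in the effector counts was not tested.

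Samd9l, which encodes an antiviral and growth-restricting protein, was at 17.2, 9.45 and 15.5 CPM in PRMK and at 0.105, 0.336 and 1.16 CPM in PRM 4, 5 and 6. Its log2 fold change was 4.76 (SE 0.94, edgeR adjusted p = 0.189). Ifi27l2a was at 12.9, 2.82 and 16.0 CPM in PRMK and at 0.314, 0 and 0.267 CPM in PRM, and Epsti1 at 3.38, 0.731 and 4.08 CPM in PRMK and 0.575, 0.336 and 0.623 CPM in PRM. These were the effectors with the lowest p-values, and all 3 were separated between the groups. In sgMeis2 and sgScramble, where leukocyte markers were near 0, Samd9l was at 0.211 to 0.496 CPM, Ifi27l2a at 0 to 0.190 CPM and Epsti1 at 0 to 0.107 CPM. The part of leukocytes in their levels was not tested. PRM 4, with 607 CPM of leukocyte markers, had the lowest Samd9l level of the PRMK and PRM libraries.

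Steps upstream of the effectors showed no shared direction. Of the 9 receptors and JAK kinases, 3 had log2 fold changes above 0 and the median was -0.06. Jak2, a kinase of the type II receptor, had a log2 fold change of 0.53 (SE 0.28). Ifngr2, a chain of the type II receptor, had -1.03 (SE 0.62) and Ifnar2, a chain of the type I receptor, -0.63 (SE 0.51). Among 6 tested STAT and IRF factors outside the members, 4 were above 0 with a median of 0.55, and the lowest p-values belonged to Irf2 (0.58), Irf3 (0.51) and Irf5 (1.24). Among 17 sensors and adaptors, 8 were above 0 with a median of -0.12. Mavs, the adaptor of MDA5, had a log2 fold change of -0.51, the DNA sensor Cgas 0.96 and the adaptor Ticam1 0.55. None of these genes passed an adjusted p of 0.05 in edgeR or DESeq2.

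Among 9 tested negative regulators, 5 were above 0 with a median of 0.06. Pias4 had a log2 fold change of 0.67, Socs3, a feedback inhibitor of JAK kinases, -1.25, and the phosphatase gene Ptpn6 2.04, none past an adjusted p of 0.05 in either tool. Of the 12 interferon ligand genes, 0 were rows of the PRMK and PRM table. All 12 were rows of the other table, where 0 had enough counts to test.

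**Figure D3:**
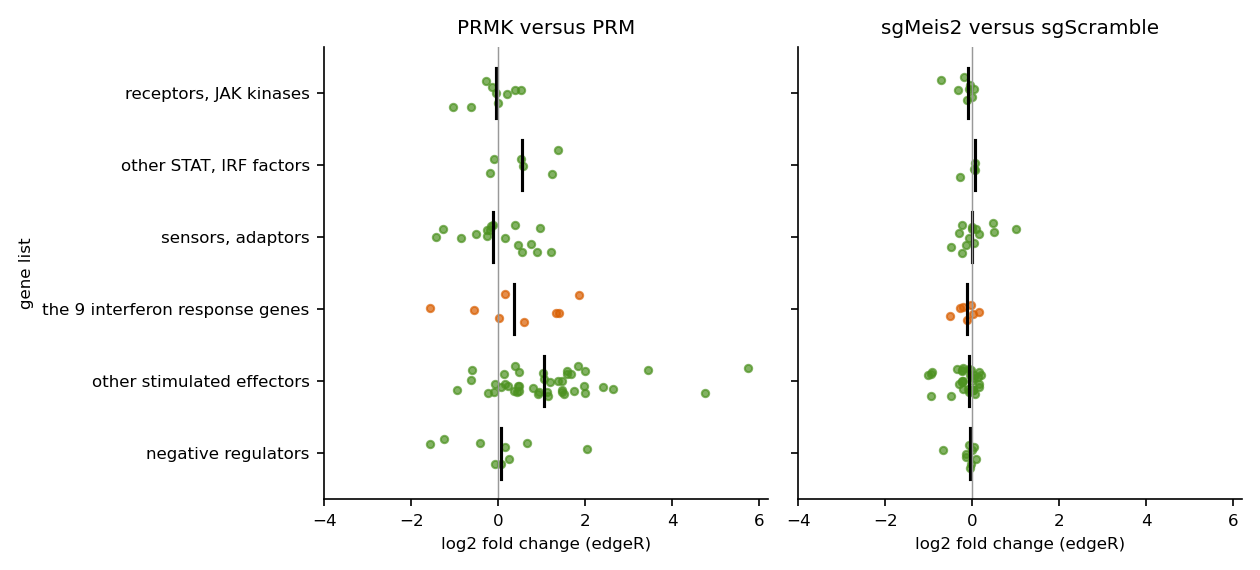
Log2 fold change (edgeR) of every tested gene of each list, with the list median as a black bar, for PRMK against PRM (left) and sgMeis2 against sgScramble (right). On the left the other stimulated effectors have a median of 1.06 and the 8 tested interferon response genes 0.37. On the right all list medians lie near 0.

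The second comparison asked what a Meis2 guide changed in cells with the Kmt2c guide. Meis2 itself was at 193 ± 49.2 CPM (SD, n = 3) with its guide and 240 ± 16.8 CPM (SD, n = 3) with the scrambled guide. Its log2 fold change was -0.31 (edgeR adjusted p = 0.754). The sgMeis2 libraries were not alike. Kmt2c and Meis2 together summed to 255.9 CPM in sgMeis2 3 and to 348.1 to 377.0 CPM in the other libraries of both groups. Pearson r of log2 CPM was 0.977 between sgMeis2 3 and the rest of its group, against 0.997 between sgMeis2 1 and 2. None of the 7 tested members was called. The share of the 16260 tested genes that was called was 0% in edgeR and 0.135% in DESeq2. In edgeR 0 members and 4.67% of all genes had an unadjusted p under 0.05. The log2 fold change was above 0 for 2 members and below 0 for 5, with a median of -0.11, and it was above 0 for 50.8% of all genes. Without sgMeis2 1, sgMeis2 2 or sgScramble 2 it was above 0 for 1 member. Without sgMeis2 3 it was above 0 for 3 members, with a median of -0.005.

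Stat2 was at 42.3, 42.0 and 39.7 CPM with the Meis2 guide and at 43.8, 37.8 and 41.6 CPM with the scrambled guide. On the log2 scale the difference was 0.01 (SE 0.09, edgeR adjusted p = 0.973). Irf1 was at 12.5, 12.99 and 13.2 CPM with the Meis2 guide and at 17.7, 16.1 and 13.1 CPM with the scrambled guide, and only sgScramble 3 lay within the range of sgMeis2. Its log2 fold change was -0.28 (SE 0.13, edgeR adjusted p = 0.754). Irf9 at -0.11 (SE 0.15), Irf7 at 0.16 (SE 0.30), Ifih1 at -0.20 (SE 0.15) and Bst2 at -0.02 (SE 0.22) overlapped between groups.

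Isg15 and Ifit1 were separated, both at low levels, and for Isg15 the nearest libraries were almost level at 0.580 and 0.598 CPM. Isg15 was at 0.580, 0.549 and 0.268 CPM with the Meis2 guide and at 0.598, 0.759 and 0.661 CPM with the scrambled guide. Isg15 was the 1 tested member separated, where 7.92% of all genes were separated as lower. Its log2 fold change was -0.51 (SE 0.35, edgeR adjusted p = 0.754), and -0.25 without sgMeis2 3. Ifit1 had 1, 2 and 1 counts with the Meis2 guide and 5, 7 and 10 counts with the scrambled guide. Ifit3 had 1, 1 and 6 counts against 2, 2 and 1 counts. Neither gene had enough counts for a test.

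The order of the genes per length was read from the TPM values in the authors' deposited table, which are scaled by gene length. Their sums, 144671 to 173014 per library, are below the usual TPM total, so the order is given and not the share of RNA. In sgScramble, Bst2 was at 2.14 ± 0.306 TPM (SD, n = 3) and Stat2 at 1.92 ± 0.155 TPM (SD, n = 3), with overlapping libraries. Irf1 followed at 1.10 ± 0.171 TPM (SD, n = 3), below every library of both. Irf9, Isg15 and Ifih1 were at 0.431, 0.412 and 0.399 TPM and did not differ beyond their spread. Ifit1, Irf7 and Ifit3 were at 0.0566, 0.0448 and 0.0202 TPM, and the libraries of Ifit1 overlapped those of Irf7. The sgMeis2 libraries had Bst2 and Stat2 first as well, at 2.11 and 1.94 TPM.

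Of the other effectors, 12 of 32 tested genes had log2 fold changes above 0, with a median of -0.08. Unadjusted p-values under 0.05 were found for 2, both lower with the Meis2 guide, against 2.47% of all genes in that direction. The sgMeis2 libraries all lay below the sgScramble libraries for 5 of the 32 effectors and all above for 1, where 7.92% and 8.12% of all genes did. Ifitm3, which blocks virus entry, was at 4.90, 6.54 and 2.95 CPM against 9.71, 10.4 and 9.17 CPM, which on the log2 scale is a fold change of -1.02 (SE 0.26). The edgeR adjusted p was 0.754 and that of DESeq2 0.127. Iigp1, an interferon-induced GTPase gene, was at 0.896, 0.732 and 1.02 CPM against 1.47, 1.94 and 1.65 CPM. Lgals3bp had a log2 fold change of -0.20. In both Ifitm3 and Iigp1 every sgMeis2 library lay below every sgScramble library.

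Receptors and JAK kinases were above 0 in 2 of 8 tested genes, led by Il10rb (-0.71), Ifngr2 (-0.32) and Ifnar2 (-0.18). Other STAT and IRF factors were above 0 in 3 of 4, with Irf2 at -0.29, Stat3 at 0.07 and Irf3 at 0.04. Sensors and adaptors were above 0 in 6 of 14, led by Ikbke, a kinase that activates IRF3 and IRF7, at 1.01 with an unadjusted edgeR p of 0.0275, followed by Rigi (-0.48) and Myd88 (-0.30). Negative regulators were above 0 in 2 of 9, with Pias1 at -0.15, Usp18 at -0.67 and Ptpn11 at 0.08. None was called by edgeR or DESeq2.

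Genes with the most similar pattern were ranked by Pearson r with the mean centred log2 CPM of the 7 members tested in both tables, over all 12 libraries and 9174 genes. Centring was done within each table. Outside the interferon lists the 5 nearest were Cdcp1 (r = 0.982), Pkp2 (0.974), Ank3 (0.972), Snx2 (0.971) and Fam83h (0.969). The pattern they share was lowest in PRM 5, at -1.37 on the log2 scale, and highest in PRM 6 (0.57), PRMK 3 (0.56) and PRMK 1 (0.55). The 12 points share their table, depth and, within PRM, a few libraries far apart.

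At the chromatin level, each member was scored for a deposited peak in its gene body and 10 kb to each side, and separately within 1 kb of its gene start. Peak coordinates are mm10, the same coordinates as GRCm38. With 2 libraries per group no test was made. "Gained" here means a peak in both lung PRMK libraries and in no lung PRM library, and "lost" the reverse. The background is 17492 protein-coding genes scored the same way.

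H3K4me3, a mark of active or poised promoters, and H3K4me2, found at promoters and enhancers, covered the promoters of most members in both genotypes. Each mark had a peak in all 4 lung libraries around 7 of 9 members, where 62.5% (H3K4me3) and 63.6% (H3K4me2) of all genes had. Within 1 kb of the start this held for 6 of 9 (Stat2, Irf9, Irf1, Irf7, Ifih1 and Bst2), against 52.9% and 52% of genes. At Stat2 the H3K4me3 peaks covered 5375 and 5925 bp of the window in PRMK and 5981 and 3478 bp in PRM. The peak over the start was 4261 and 4314 bp wide in PRMK and 4755 and 2702 bp in PRM. The remaining length lay past the end of the gene. Ifit3 had no peak of either mark in any lung library, as was true of 28.9% (H3K4me3) and 25.2% (H3K4me2) of genes. Ifit1 had H3K4me2 peaks in PRMK 1, PRMK 2 and PRM 1 and H3K4me3 peaks in PRMK 1 and PRM 1.

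Isg15 differed in the stretch of 1 kb to each side of its start. Both PRMK libraries had an H3K4me2 peak within 1 kb of it and neither PRM library had, a state found in 1.92% of genes. The peak covered 167 bp of that stretch in PRMK 1 and 2001 bp in PRMK 2, and in 1 of the 2 PRMK libraries it held the 3 ISRE cores printed above. Only in PRMK 2 did it cover the start itself. In PRMK 1 it ended 834 bp before the start. Upstream peaks in PRM 1 and PRM 2 ended 1470 and 2428 bp before the start. H3K4me3 reached the start in PRMK 1 alone. The window of Isg15 also holds the starts of Agrn and Perm1, so its peaks in all 4 libraries need not belong to Isg15.

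H3K4me1, a mark of enhancers laid down in part by KMT2C, differed between genotypes at 4 members. Peaks were gained around Stat2 and Irf7 (7.33% of all genes were gained) and lost around Ifih1 and Ifit3 (3.14%). Irf1 was the 1 member with peaks in all 4 lung libraries, as were 31% of genes. Isg15 and Ifit1 had no peak in any lung library, like 39.4% of genes. Of the lung libraries, Irf9 had a peak in PRMK 1 only and Bst2 in PRM 1 only.

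**Figure D4:**
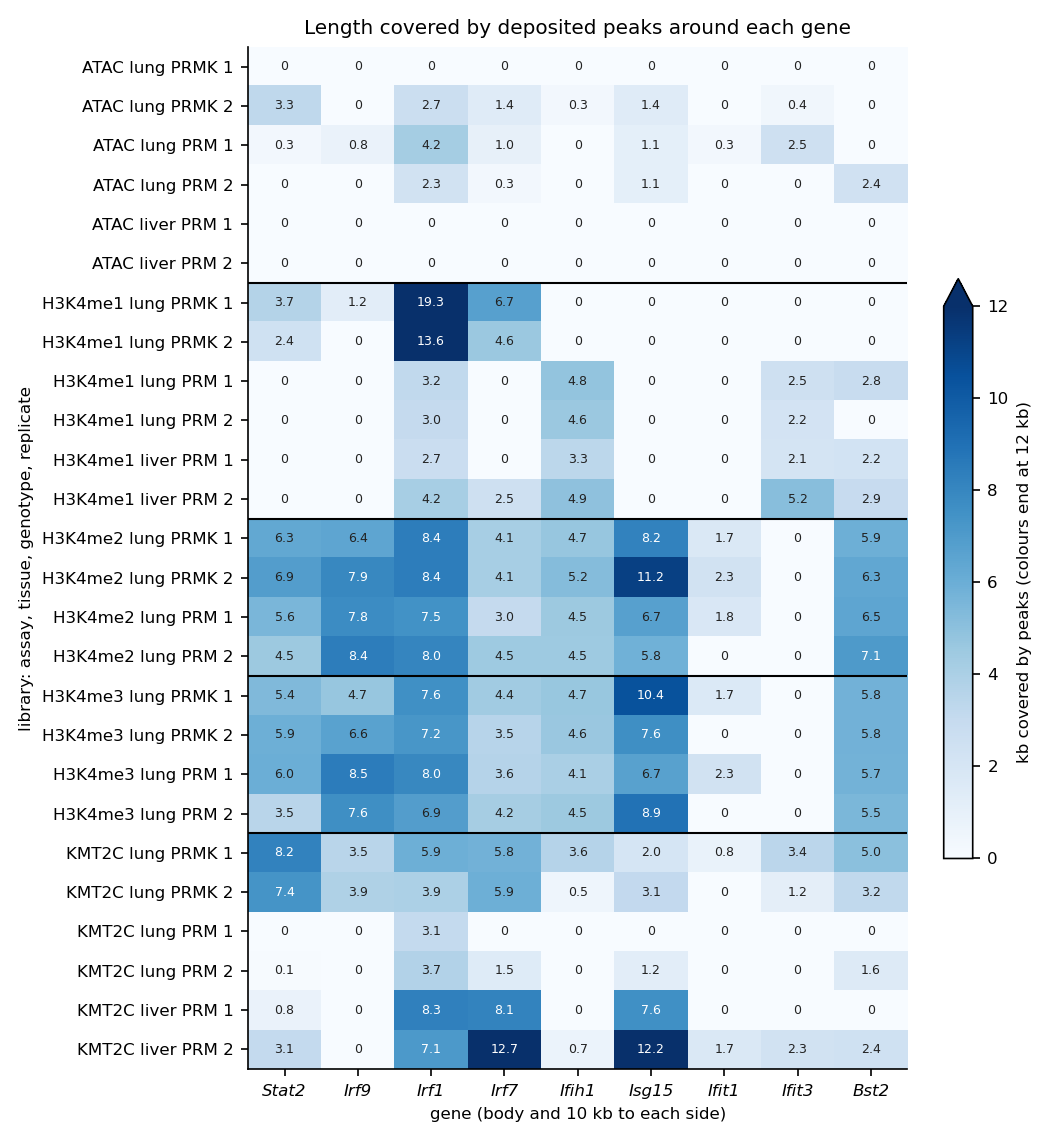
Length in kb covered by deposited peaks over each gene body and 10 kb to each side, per library. H3K4me1 covers 13.6 and 19.3 kb at Irf1 in lung PRMK and 2.7 to 4.2 kb in lung and liver PRM. ATAC libraries with 593 peaks or fewer are at 0 for every gene.

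At Irf1, H3K4me1 peaks covered 19286 and 13576 bp in PRMK 1 and 2, and 3183 and 3016 bp in lung PRM 1 and 2. The liver PRM libraries had 2721 and 4155 bp. All 6 libraries had a peak about 5 to 9 kb before the start. In PRM it was the lone peak, at chr11:53761680-53764862 in lung PRM 1. The PRMK libraries added peaks over the gene itself, among them a 12760 bp peak at chr11:53767910-53780669 in PRMK 1. Within 1 kb of the start H3K4me1 was gained at Irf1 and Stat2, where 2.66% of all genes were. The RNA of Irf1 overlapped between the same genotypes.

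At Stat2, both PRMK libraries had an H3K4me1 peak before the start, chr10:128267823-128270037 in PRMK 1 and chr10:128268465-128269803 in PRMK 2. Both had a further peak past the end of the gene, at chr10:128297003-128298320 and chr10:128297334-128298390. None of the 4 lung and liver PRM libraries had an H3K4me1 peak in the window. The upstream peak ended 461 and 695 bp before the start, and the ISRE core at 222 bases lay outside it.

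The reverse pattern was found at Ifih1, where H3K4me1 covered 4794 and 4564 bp in lung PRM, 3346 and 4944 bp in liver PRM and 0 bp in both PRMK libraries. Ifih1 RNA was higher in every PRMK library than in any PRM library, but the difference was not called. Its adjusted p was 0.283 in edgeR and 0.109 in DESeq2. Ifit3 likewise had 2495 and 2178 bp in lung PRM, 2123 and 5152 bp in liver PRM and 0 bp in PRMK. Its lung PRM peaks lay past the end of the gene and ran over the window edge. They spanned 13.4 to 16.4 kb after the start in PRM 1 and 13.7 to 16.9 kb in PRM 2. H3K4me1 lists held 38075 and 36911 peaks in PRMK and 30399 and 27746 in lung PRM, and covered 148 and 77.4 Mb against 125 and 111 Mb.

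**Figure D5:**
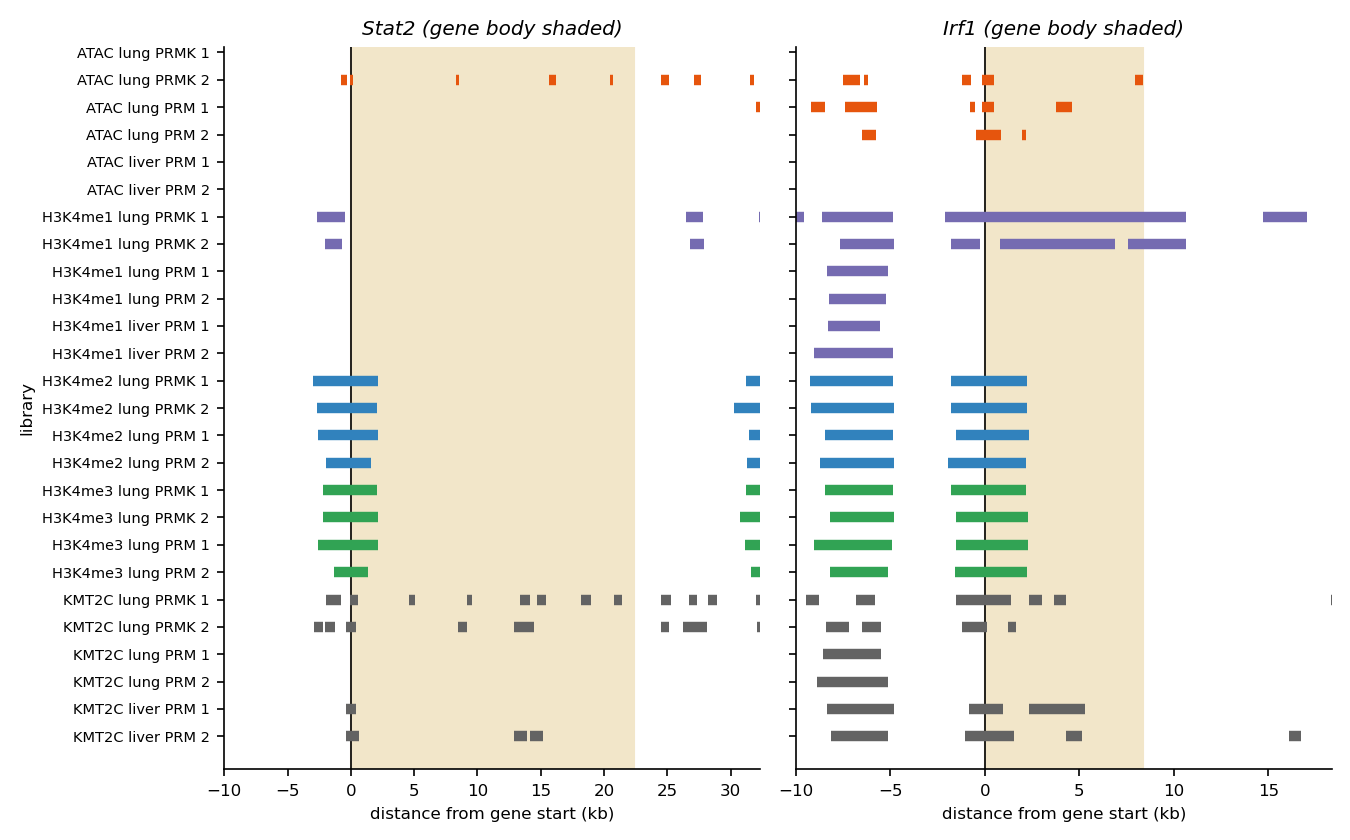
Deposited peaks around Stat2 and Irf1 in each library, as distance in kb from the gene start, with the gene body shaded. H3K4me1 peaks before the Stat2 start and over the Irf1 gene are present in both lung PRMK libraries and in no PRM library, while H3K4me2 and H3K4me3 peaks over both starts are present in all 8 libraries.

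KMT2C peak lists were longer in PRMK than in lung PRM, although the PRMK cells carried the Kmt2c guide. The lists held 187682 and 134561 peaks in PRMK, 9949 and 16681 in lung PRM and 65201 and 113129 in liver PRM. Ifih1, Ifit3 and Irf9 were gained in the wide window, as were 32.3% of all genes, and Stat2, Irf9, Irf1 and Bst2 at the start, as were 19% of genes. Both backgrounds move with the length of the lists. At Stat2 the covered length was 8157 and 7361 bp in PRMK, 0 and 54 bp in lung PRM and 768 and 3082 bp in liver PRM. Against lung PRM, liver PRM libraries gained peaks within 1 kb of the start at Stat2, Irf1 and Isg15, as did 15.4% of genes. Stat2 and Irf1 were in both sets of start peaks. The share of all genes in both sets was not counted, and the lung PRM lists were the shortest.

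ATAC, which marks open chromatin, gave 64596 and 19834 peaks in lung PRM, 593 and 54201 in lung PRMK and 345 and 141 in liver PRM. No member had a peak in all 4 lung libraries, where 3.08% of genes had. Without PRMK 1 there were 3 members with a peak in each remaining lung library, namely Irf1, Irf7 and Isg15, where 43.9% of all genes had. Open chromatin within 1 kb of the start was listed in PRM 1, PRM 2 and PRMK 2 for Irf1 and Irf7, in PRMK 2 alone for Stat2 and in PRM 2 alone for Bst2. For Irf7 these peaks began 619, 439 and 409 bp after the start and did not cover it. The GAS core of Irf1 lay inside the ATAC peak in both PRM libraries and in PRMK 2, and inside H3K4me3 peaks in all 4 lung libraries. The read depth behind the lists is unknown, so in the short lists a missing peak does not show closed chromatin.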

How the data were processed

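The RNA tables hold raw counts per gene, deposited by the authors; reads were aligned with STAR 2.6.0a to GRCm38 per the submitters' processing notes, and neither the counting tool nor its strand setting is named. The authors' deposited log2 fold changes and their p-values were printed for Stat2 only. TPM values of the sgMeis2 table were used as deposited, and 6 further columns of per-library values labelled TPM were not used, since they look log-scaled. CUT&Tag peaks carry a signal per peak and ATAC peaks a score, both as deposited by the authors, and were used only to rank peaks within a list. CUT&Tag reads were aligned with Bowtie2 and peaks called with SEACR, and ATAC reads aligned with Bowtie2 2.2.1 to mm10, per the submitters' processing notes. Peaks were listed per library.

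Counts were tested with edgeR 4.0.16 (R 4.3.3; TMM, filterByExpr, quasi-likelihood, Benjamini-Hochberg over all tested genes), 3 against 3 libraries per table, calling adjusted p under 0.05. The SE is the log2 fold change divided by the square root of F. DESeq2 1.42.0, RLE scaling, no low-count filter, each library left out and, for sgMeis2, a replicate block were alternatives. The edgeR fit was tested on simulated counts, and the peak overlap search on simulated intervals. The other steps were not tested on simulated data. A peak counted with 1 bp of overlap, using the central block of each ATAC peak, and coordinates came from RefSeq GRCm38.p6. The background for peaks left out 4395 protein-coding genes without a strand in the tables used. Named genes are the 9 members, Kmt2c and Meis2, the up to 3 genes with the lowest edgeR p in each list, and the 5 genes nearest in pattern; Samd9l, Ifi27l2a and others of the lists follow that rule, and Adgre1, Itgam, C1qa, C1qb and Tyrobp are markers. The members and lists were chosen with earlier results of these data known. PRMK RNA labels point to another table name than the one used, whose columns name PRMK.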

Additional observations from a re-analysis of the deposited data

How the results depend on the processing

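With DESeq2, 1218 genes were called between PRMK and PRM (542 higher, 676 lower) and 22 between sgMeis2 and sgScramble (3 higher, 19 lower), where edgeR called 0. Members called rose from 0 to 1, Stat2, in PRMK against PRM. Leaving out a library gave 0 to 796 called genes in the first comparison, the highest without PRM 4 (282 higher, 514 lower), and 0 to 46 in the second, the highest without sgMeis2 3 (12 higher, 34 lower). Members called stayed at 0 in each of these. RLE scaling and testing without a filter on low counts called 0 genes in both comparisons. The cause was not tested.

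In PRMK against PRM the log2 fold change of Irf1 turned to -0.000267 with DESeq2, and leaving out a library moved it between -0.47 and 0.73, below 0 without PRMK 1, PRMK 3, PRM 4 or PRM 5. Isg15 moved between -0.38 (without PRMK 3) and 1.59, at -0.23 without PRM 4 and -0.31 without PRM 5. Ifit3 moved between -1.38 and 0.15, and Bst2 between -2.11 and 0.035, both above 0 without PRM 6 alone. With the Meis2 guide, leaving out a library moved Stat2 between -0.042 and 0.058, Irf7 between -0.030 and 0.38 and Bst2 between -0.14 and 0.15. Members above 0 in that comparison ranged from 1 to 3. The counts of members and effectors above 0, and the whole interval of ATAC peaks, were alternatives chosen after seeing the data.

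Members with an H3K4me1 peak in all 4 lung libraries went from 1 to 0 over the gene body alone, within 1 kb of the start or among peaks stronger than the median of each list. For KMT2C 1 went to 0 over the gene body alone or at the start. For H3K4me3 7 went to 3 among those stronger peaks. Leaving out a library gave 0 to 3 members for ATAC (3 without PRMK 1), 1 to 1 for H3K4me1, 7 to 8 for H3K4me2, 7 to 7 for H3K4me3 and 1 to 5 for KMT2C (5 without PRM 1).

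Same-numbered sgMeis2 and sgScramble libraries correlated at 0.008, -0.012 and 0.029 in their deviations from the group means. No shared deviation was seen, but with 3 libraries per group this cannot show whether they were prepared together. The replicate block called 0 genes and 0 members. No paired analysis was possible for PRMK against PRM because the groups share fewer than 2 replicate numbers. The 3 libraries per group and counts under 40 for Ifit3 limit what could be detected.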
